A study of Mus musculus with 168 samples.

Results

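The microRNA genes described here lie inside Sfmbt2 on mouse chromosome 2. They were chosen by position: every row of the table of counts whose Ensembl transcript is typed as a microRNA in GENCODE M21 (GRCm38) and lies within Sfmbt2 (chr2:10370510-10595253) on the same, plus, strand. This rule gave 68 members among the 1626 transcripts of the table. GENCODE M21 annotates 119 such microRNA transcripts in Sfmbt2, and only those with a row in the table were analysed here. All 68 members lay in intron 10 of the transcript Sfmbt2-201 (chr2:10461473-10523944, 62.5 kb), and 0 of them overlapped an exon of any Sfmbt2 transcript. They were spread over 53.0 kb (chr2:10465287-10518279), with a median gap of 405 bases between neighbours, and their annotated lengths ran from 73 to 127 bases. By name, 17 were Mir466 genes, 17 Mir669 genes, 5 Mir467 genes, 5 Mir297 genes and 24 genes with a Gm name.

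Sfmbt2 encodes a Polycomb group protein and is imprinted in mice, where the paternal copy is expressed in early embryos and placenta. Its intron holds a large microRNA cluster that is found in rodents and arose by repeated duplication, and in mice its loss impairs development of the placenta. A microRNA recognises its targets mainly through the seed, a short stretch near its 5′ end, so copies that share a seed are thought to act on overlapping sets of messenger RNAs.

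The libraries hold short RNA from the hippocampus of C57BL/6 mice at 2, 6 and 10 months (2m, 6m and 10m). Each mouse with a Q label was heterozygous for a knock-in Htt allele, in which a human HTT exon 1 with a given number of CAG repeats replaces the mouse sequence of 1 copy, and the other copy was wild type. The alleles were Q20, Q80, Q92, Q111, Q140 and Q175, and wild-type (WT) littermates came from the Q20 line. Expansion of the CAG repeat in HTT causes Huntington's disease. Q175 arose from the Q140 line by spontaneous expansion, and each allele is a line of its own, so CAG length and line cannot be told apart. By the labels Q20 and WT mice shared cages and each longer allele was kept with mice of its own label, while the study's methods describe cages of heterozygous and WT animals together. On the labels' account allele and cage cannot be told apart. Each of the 21 groups of allele and age had 8 libraries, and Q20 and WT together served as the 16 controls of each age. Library totals ran from 2117539 to 9099227 estimated counts (median 3374648). The 16 libraries of WT and Q175 at 6m, called block A here, carry library names that start with another number than the rest and were processed differently before deposit (below).

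Of the 6 neuronal marker genes listed for this check, all were in the table, and over all libraries their means ran from 4.69 CPM (Mir124a-2, at 0 in some libraries) to 40800 CPM (Mir9-2), where CPM is counts per 1000000 counts of the library, on library sizes scaled by the trimmed mean of M values (TMM). Mir9-2 never fell below 30400 CPM, and Mir124a-1, Mir128-1 and Mir128-2 averaged between 6070 and 18800 CPM. Markers of other cells that hippocampal tissue can hold were present as well. The choroid plexus marker Mir204 averaged 8280 CPM and the other 9 markers of that list between 1.03 and 470 CPM. The 6 endothelial and mesenchymal markers averaged between 1.7 CPM (Mir214) and 10300 CPM (Mir143).

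RefSeq (GRCm38.p6) held mature sequences for 8 of 10 genes that carry the same family names but lie outside Sfmbt2, and 0 of the 68 members were matched there. Of these relatives, 6 are shown for the sequence character of the families, and they are not members. Capitals mark the seed, bases 2 to 8 from the 5′ end.
mmu-miR-466q: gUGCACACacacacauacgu
mmu-miR-466i-3p: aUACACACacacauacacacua
mmu-miR-467f: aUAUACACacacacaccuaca
mmu-miR-466k: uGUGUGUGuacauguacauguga
mmu-miR-467h: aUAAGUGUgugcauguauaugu
mmu-miR-669n: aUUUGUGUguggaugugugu
They are rich in runs that alternate A and C or U and G. The 8 relatives had 8 distinct seeds, so a shared family name did not mean a shared seed here. Mir466q, on chromosome 3, was the only relative with counts in most libraries (157 libraries, mean 1.21 CPM). The other 9 averaged between 0.00246 and 0.05 CPM, and 0 of the 10 passed the low-count filter.

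The members share 1 host and 1 strand, so the 2 Sfmbt2 promoter windows in RefSeq are shown, each from 250 bases before to 50 bases after an annotated start, with CG dinucleotides in capitals (CG reads the same on both strands).
Sfmbt2 promoter at chr2:10370201-10370500, plus strand, GRCm38.p6: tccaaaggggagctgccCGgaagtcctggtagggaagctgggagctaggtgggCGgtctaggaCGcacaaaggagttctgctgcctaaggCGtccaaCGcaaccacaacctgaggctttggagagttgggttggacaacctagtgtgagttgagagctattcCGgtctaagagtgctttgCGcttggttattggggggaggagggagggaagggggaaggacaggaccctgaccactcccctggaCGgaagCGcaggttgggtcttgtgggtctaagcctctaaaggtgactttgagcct
Sfmbt2 promoter at chr2:10372186-10372485, plus strand, GRCm38.p6: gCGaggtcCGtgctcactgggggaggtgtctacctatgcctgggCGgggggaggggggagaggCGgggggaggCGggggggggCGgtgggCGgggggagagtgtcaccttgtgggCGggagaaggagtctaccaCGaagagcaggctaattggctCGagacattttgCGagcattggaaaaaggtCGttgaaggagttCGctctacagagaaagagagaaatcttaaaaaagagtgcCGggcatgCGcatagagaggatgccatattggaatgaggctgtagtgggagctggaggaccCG
The first holds 9 CG dinucleotides and the second 16, against a median of 7 in the 32851 promoter windows of the table. No value in these data measures activity at either window.

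Together the 68 members made up a small part of the hippocampal short RNA. They took between 0.00425% and 0.0136% of a library's counts (median 0.00708%), or 147 to 540 estimated counts in all. Of the 68, only 12 passed the low-count filter (edgeR filterByExpr with a minimum count of 10) that left 470 of 1626 transcripts for testing. These 12 held 84.6% of the members' counts. The 56 that did not pass averaged at most 1.24 CPM (Mir466f-2), 36 of the 68 averaged under 0.1 CPM, and 26 had counts in fewer than 10 libraries. Of the 24 Gm genes, 1 averaged over 0.1 CPM. Summed over their members, the Mir467 genes averaged 34.9 CPM, the Mir669 genes 21.5, the Mir466 genes 11.4, the Mir297 genes 2.37 and the Gm genes 1.27 CPM.

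Among single members, Mir467a-1 stood highest with a mean of 15.3 CPM, followed by Mir669c with 11.5, Mir467d with 10.2 and Mir467e with 5.97 CPM. Next came Mir466d with 3.94, Mir467c with 3.28, Mir669o with 2.98, Mir466g with 2.46 and Mir669d-2 with 1.53 CPM. Mir467a microRNAs have been described to target thrombospondin-1 in endothelial cells, and Mir669c was reported to be higher in livers of old mice. The remaining 3 that passed the filter, Mir466b-2, Mir669a-2 and Mir466, averaged between 0.667 and 1.33 CPM and were at 0 in part of the libraries. Mir669a was described to repress the myogenic regulator MyoD in mouse cardiac progenitor cells. The order of neighbours was not firm. Over the 8 WT libraries at 10m, Mir467a-1 (11.6 to 18.7 CPM) overlapped Mir669c (6.92 to 11.7 CPM) by little, while Mir669c and Mir467d (5.77 to 9.64 CPM) overlapped over most of their ranges. These orders compare counts per gene without regard to length or to how copies were told apart.

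How far single copies can be told apart was read from the tables themselves. A deposited count that is not whole (tolerance 0.001) can come from a read shared among several loci. Whether that happened here was not tested. All nonzero values of Mir466g were whole, as were 84.9% of those of Mir669d-2, 75.6% of Mir467e, 73.8% of Mir467c and 58.3% of Mir669c. In contrast, 9.52% were whole for Mir467d, 6.67% for Mir467a-1, 5.39% for Mir466d and 10.6% for Mir669o. Thus Mir467a-1, the highest member, and Mir467d had mostly fractional values, and Mir466g, Mir669d-2 and Mir467e had mostly whole ones. In 4 pairs of members (Mir466b-5 with Mir466b-7, Mir669p-1 with Mir669p-2, Gm22635 with Gm25680, and Gm22626 with Gm24640) both copies had the same count in each of the 152 libraries outside block A.

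The deposited RPKM values (reads scaled by transcript length and by library size) placed the members in another order. Outside block A, Gm25022 averaged 0.0113 CPM from the counts yet 146 RPKM, and Mir467b averaged 0.097 CPM yet 131 RPKM, beside Mir467d with 10.2 CPM and 99.8 RPKM. Gm25022 and Mir467b were singled out after their values were seen. Of the 56 members that did not pass the filter, 19 had a mean RPKM at least 100 times their mean CPM. In block A the tables kept close to each other. For the 25 members with at least 0.1 CPM there, the RPKM was 8.19 to 14.0 times the CPM, and Gm25022 had 0.0498 RPKM.

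**Figure D1:**
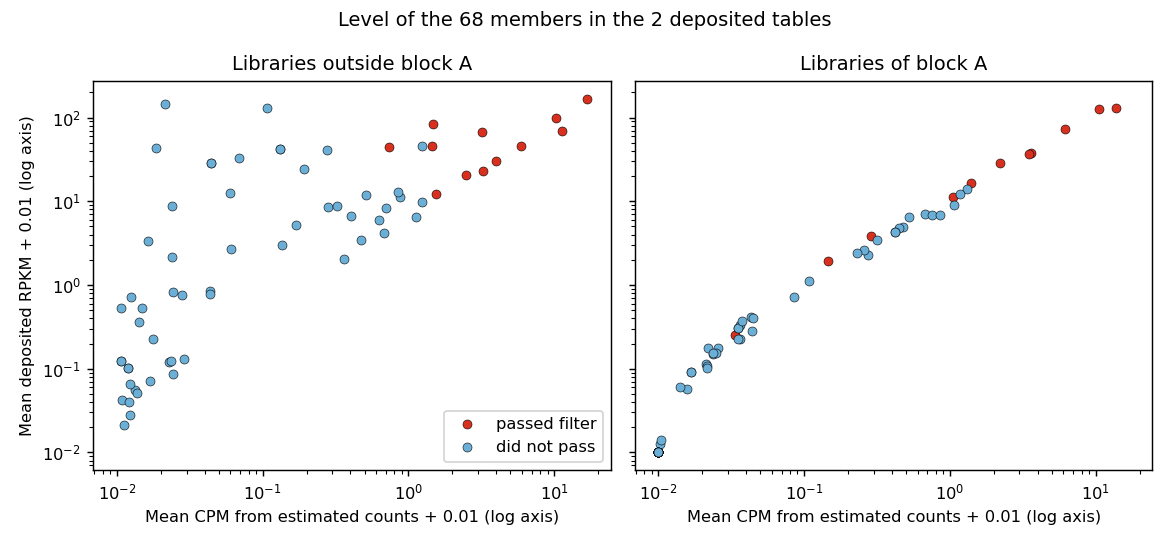
Mean level of each of the 68 members, from the estimated counts (CPM, x axis) and from the deposited RPKM table (y axis), each plus 0.01 on log axes. Outside block A (left) Gm25022 and Mir467b, with almost no counts, lie at 146 and 131 RPKM, while in block A (right) both tables give 1 narrow band. Red points are the 12 members that passed the low-count filter.

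Block A also differed from the other 6m libraries in the counts of some members. Mir467a-1 had 16.7 ± 1.65 CPM in Q20 at 6m (SD, n = 8, range 13.9 to 19.2) but 0.312 ± 0.212 CPM in WT and 0.245 ± 0.246 CPM in Q175, both in block A. The ranges did not overlap. Mir466b-2 was at 0 in all 16 block A libraries. In Q20 at 6m it averaged 1.57 CPM but ran from 0 to 4.36 CPM, so the ranges met at 0. Mir669a-2 averaged 0.0245 CPM in WT (highest 0.196) and 1.63 CPM in Q20 (median 0.866, range 0.651 to 7.14). Mir669o had 0.938 ± 0.37 CPM in WT and 3.01 ± 0.673 CPM in Q20, without overlap, and the Gm genes summed to 0.225 and 1.01 CPM. For each of the remaining 8 tested members the WT and Q20 ranges overlapped. How many of all tested transcripts did not overlap between these groups was not counted, so this is not shown to be particular to the cluster. Among them Mir467d had 10.3 ± 2.07 CPM in WT and 11.1 ± 1.81 CPM in Q20 at 6m (SD, n = 8). Block A holds all WT and all Q175 libraries of 6m and no others, so at 6m Q175 was compared with WT within block A only, through a term for the block in each fit.

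The first comparison asked how the members differed between Q175 and the controls. At 10m, 6 of the 12 tested members were higher in Q175 (adjusted p under 0.05, edgeR quasi-likelihood F test with Benjamini-Hochberg adjustment over 470 transcripts) and 0 lower, where 5.53% of all tested transcripts were called higher and 6.38% lower. At least 1 member of Mir466, Mir467 and Mir669 was among the 6. The median change of the 12 members was 0.69 on the log2 scale, against 0.01 over all 470 transcripts, and 11 of 12 were above 0, where 51.5% of all were. Without the 8 Q175 libraries of 10m 11 members would have passed the low-count filter. Mir669d-2 passed through these libraries, so that the filter itself favours a higher value there, and the counts over the 12 are a description. Of the other 11 members, 5 were called, with a median change of 0.67.

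Mir669c ranged in the Q175 libraries at 10m from 11.5 to 22.9 CPM with a median of 16.7, and in the 16 controls from 6.92 to 12.4 CPM with a median of 9.58. In 7 of 8 Q175 libraries it exceeded each of the other 48 libraries of that age. Its log2 change was 0.78 (SE 0.12, adjusted p = 9.75e-05).

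Mir467a-1 ranged from 17.9 to 31.9 CPM in Q175 (median 23.3) and from 8.81 to 20.2 CPM in the controls (median 14.7). Again 7 of 8 Q175 libraries lay above each of the 48 others, and the lowest lay within the controls. The log2 change was 0.75 (SE 0.13, adjusted p = 0.00026).

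Mir467d ranged from 9.35 to 16.7 CPM in Q175 (median 12.1) and from 5.77 to 11.8 CPM in the controls (median 8.03). Only 4 of 8 Q175 libraries lay above the highest control, but all 8 lay above the control median. The change was 0.67 on the log2 scale (SE 0.13, adjusted p = 0.00111).

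Mir467e ranged from 7.21 to 10.9 CPM in Q175 (median 7.8) and from 2.88 to 7.02 CPM in the controls (median 5.05). It was the 1 tested member whose 8 Q175 libraries all lay above all 16 controls, which 1.06% of the 470 transcripts did. Its log2 change was 0.70 (SE 0.15, adjusted p = 0.00209).

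Mir466g ranged from 1.36 to 4.02 CPM in Q175 (median 3.3) and from 1.29 to 3.01 CPM in the controls (median 1.86). The groups overlapped, with 6 of 8 Q175 libraries above the highest control and 1 below the control median. Its change was 0.79 on the log2 scale (SE 0.21, adjusted p = 0.0116 with edgeR). The call ended with Q20 alone as the control, with no low-count filter and in each sex alone (largest adjusted p = 0.679, with edgeR).

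Mir669d-2 had the largest change among the called members, 1.41 on the log2 scale (SE 0.31, adjusted p = 0.00288), at a low level. It ranged from 2.01 to 3.98 CPM in Q175 (median 2.56) and from 0 to 2.36 CPM in the controls (median 0.988). Here 6 of 8 Q175 libraries lay above the highest control. It is the member that passed the filter only with these Q175 libraries included. At about 1 CPM a library of median depth holds only a few counts of this gene, so single values carry a large counting error.

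**Figure D2:**
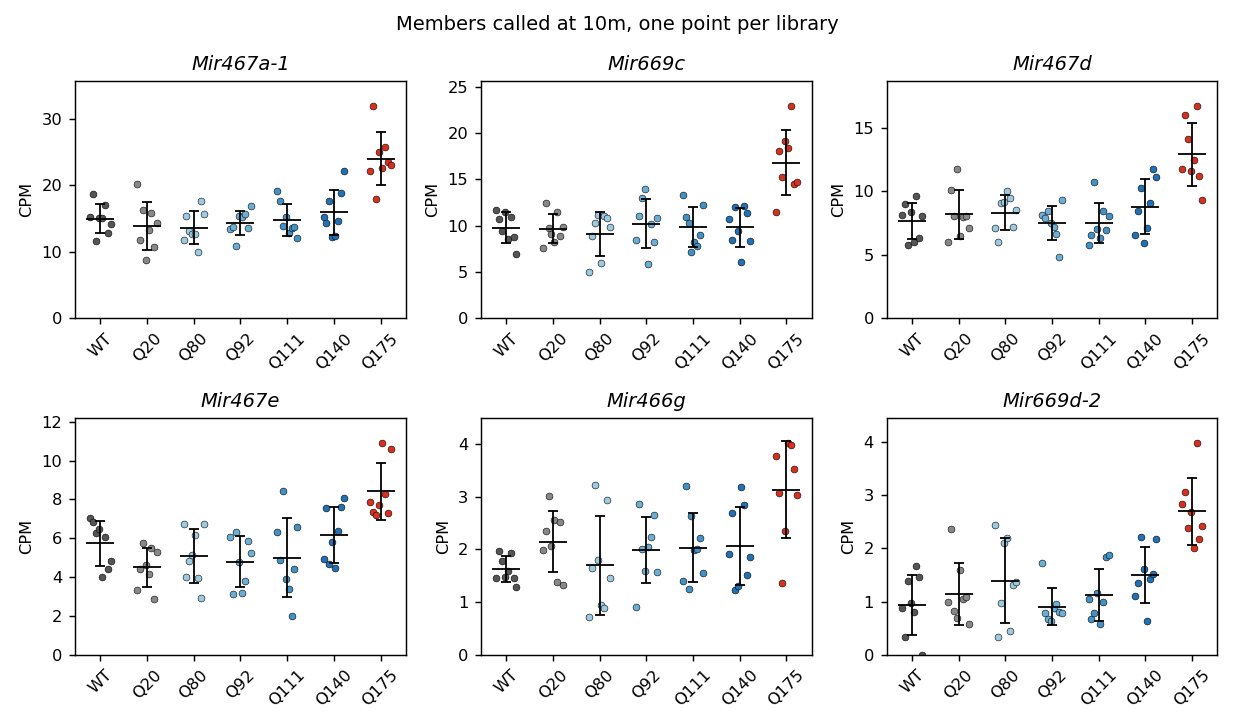
CPM of the 6 called members at 10m in each library (points, 8 per allele) with the group mean and SD (black bars). In each panel the Q175 mean is the highest, and the WT to Q140 groups overlap one another. Mir467a-1 means run from 13.6 CPM in Q80 to 15.9 CPM in Q140, and the 8 Q175 libraries from 17.9 to 31.9 CPM.

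The 6 members not called also had values for Q175 at 10m. Mir467c averaged 4.03 ± 1.16 CPM among the Q175 libraries, against 2.64 ± 0.764 CPM for controls (SD, n = 8 and 16; log2 change 0.63, SE 0.21, adjusted p = 0.0536). Mir466d stood at 5.14 ± 1.54 and 3.59 ± 1.05 CPM (0.53, SE 0.19, adjusted p = 0.0717). For both, all 8 Q175 libraries lay above the control median, as they did for 8 of the 12 members and 6.81% of all transcripts. Mir669o stood at 3.82 ± 2.58 and 3.02 ± 1.92 CPM (0.18, SE 0.44, adjusted p = 0.84). The other 3 had changes from -0.02 to 1.68 on the log2 scale, and the largest of them, Mir466b-2, had an adjusted p of 0.253.

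Sums over members do not depend on how a fixed number of reads was divided among copies within the cluster. The summed level of the 68 members at 10m was 99.0 ± 13.9 CPM in Q175 (SD, n = 8, range 82.8 to 122) and 60.7 ± 6.87 CPM in the controls (n = 16, range 52.5 to 72.8), a ratio of 1.63. All 8 Q175 libraries lay above the highest of the other 48, a Q140 library at 77.2 CPM. The ratio was 1.63 with the relative log expression scaling of edgeR and 1.66 with plain library totals. The 56 members that were not tested singly summed to 14.7 ± 4.02 CPM in Q175 and 9.1 ± 2.13 CPM in the controls, with overlapping ranges. By name, the Mir467 genes summed to 49.3 ± 6.14 CPM against 30.1 ± 3.51 and did not overlap. The Mir669 genes (30.5 ± 7.41 against 18.2 ± 3.15 CPM), the Mir466 genes (14.2 ± 4.41 against 9.41 ± 1.89 CPM) the Mir297 genes (3.35 ± 1.1 against 1.79 ± 0.639 CPM) and the Gm genes (1.62 ± 0.781 against 1.19 ± 0.712 CPM) overlapped. No test was made on sums, and how often sums over other transcripts separate in this way was not computed.

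**Figure D3:**
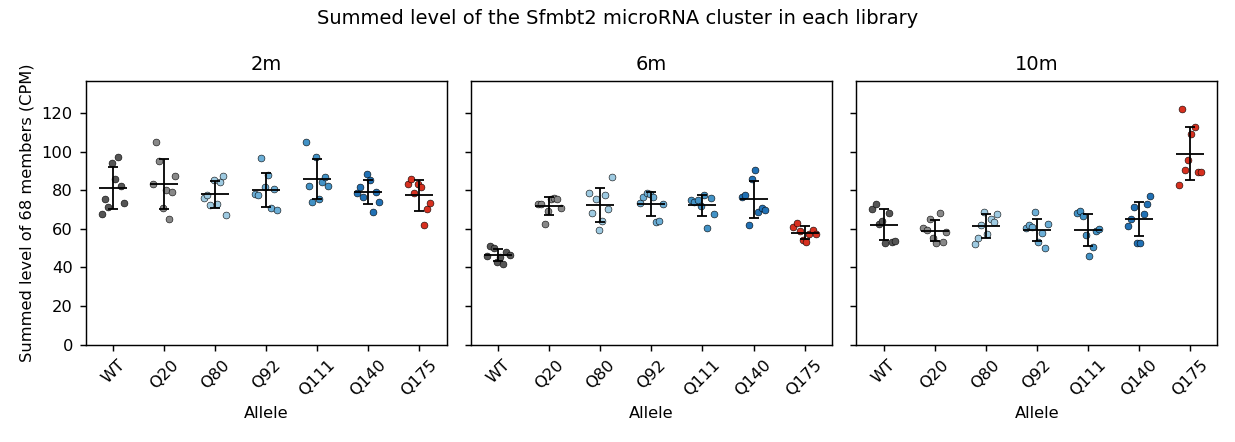
Summed level of the 68 members (CPM) in each library at 2m, 6m and 10m, by allele, with the group mean and SD (black bars, 8 libraries each). At 10m the Q175 libraries (82.8 to 122 CPM) lie above all others, and at 6m WT and Q175, the block A libraries, lie below the other alleles on average.

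Within each library code of 10m (L6, L7 and L8, parts of the library names), the difference in summed level of Q175 over controls was 0.74 (3 and 8 libraries), 0.62 (3 and 6) and 0.71 (2 and 2), as a mean difference of log2(CPM + 0.5). For each of the 6 called members this difference was above 0 within every code, from 0.38 (Mir467e in L8) to 2.12 (Mir669d-2 in L8). These members were called from the same libraries, so differences above 0 within a code are no separate support. The share of all transcripts above 0 in every code was not computed. In females the summed level differed by 0.63 and in males by 0.78. With females alone, 0 members were called by edgeR (7 had an unadjusted p under 0.05), and with males alone 3 were called (6 with an unadjusted p under 0.05), each with 4 of the 8 Q175 libraries.

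In bulk tissue, fewer cells of a type and less RNA per cell cannot be told apart. At 10m the summed level of the 6 neuronal markers ran from 65800 to 72300 CPM in Q175 and from 65100 to 76500 CPM in the controls, and that of the 10 choroid plexus and epithelial markers from 5340 to 28900 and from 6170 to 32700 CPM. The 6 endothelial and mesenchymal markers ran from 16400 to 27700 and from 16500 to 32000 CPM, and the 2 oligodendrocyte markers from 4040 to 5460 and from 3100 to 5230 CPM. The 3 red blood cell markers ran from 2630 to 3240 and from 2450 to 3670 CPM. Of the leukocyte and microglia markers only Mir223 was in the table, with 5.04 to 11.6 and 4.74 to 17.5 CPM. The ranges of every list overlapped between the groups. All 8 Q175 libraries lay below the control median in the neuronal markers (medians 68400 and 73400 CPM) and in the red blood cell markers (medians 2920 and 3330 CPM). For the other lists 3 to 6 of 8 did. The part of these cells in the differences of the cluster was not tested.

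At 6m, 1 of 12 members was called higher in Q175 and 0 lower, where 1.28% of the 470 transcripts were called higher and 2.13% lower. Mir669c ranged from 13.3 to 20.0 CPM in Q175 and from 8.25 to 12.9 CPM in WT, which did not overlap, and from 7.7 to 16.6 CPM in Q20. How many of all tested transcripts did not overlap between Q175 and WT at this age was not counted. The change of Mir669c was 0.49 on the log2 scale (SE 0.12, adjusted p = 0.0282). The call ended when any 1 of WT M3, WT F4, Q175 M1 or Q175 F3 was left out (library names give sex and number), and when no low-count filter was applied. The next smallest p was that of Mir466g, with a log2 change of 0.55 (SE 0.26, adjusted p = 0.309) and levels of 2.64 ± 0.908 CPM in Q175 and 1.78 ± 0.496 CPM in WT (SD, n = 8). Mir467a-1 was near 0 in both groups of block A and could hardly be compared at this age. Within block A, the summed level was 58.0 ± 3.24 CPM in Q175 (53.4 to 63.0) and 46.5 ± 3.14 CPM in WT (42.0 to 50.9), without overlap, a difference of 0.32 in mean log2(CPM + 0.5). How often sums over other transcripts separate in this way was not computed. The Mir669 genes summed to 23.6 ± 2.38 CPM in Q175 and 17.4 ± 2.43 in WT, and the Mir467 genes to 21.2 ± 3.42 and 20.1 ± 2.1 CPM.

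At 2m, 0 members were called in Q175 by edgeR, DESeq2 or limma-voom (edgeR called 0.0% of all transcripts), and 0 had an unadjusted p under 0.05, as did 1.7% of all transcripts. The median change was -0.04 on the log2 scale. Mir467a-1 averaged 18.8 ± 2.92 CPM among the Q175 libraries, against 18.7 ± 2.67 CPM for controls (SD, n = 8 and 16; log2 change -0.03, SE 0.09), and Mir669c at 10.2 ± 2.01 and 11.5 ± 1.99 CPM (-0.18, SE 0.12, adjusted p = 0.94). The summed level was 77.3 ± 8.16 CPM in Q175 and 82.2 ± 11.5 CPM in the controls.

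Levels at 2m were higher than at 10m in the controls: 82.2 against 60.7 CPM for the sum and 18.7 against 14.4 CPM for Mir467a-1. Libraries of different ages carry different codes in their names, so age and library code cannot be told apart, and no test was made.

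The alleles between the controls and Q175 were then compared with the controls one by one. Over the 12 comparisons of Q80, Q92, Q111 and Q140 at 3 ages, 0 of 144 tests of members gave a call by edgeR, DESeq2 or limma-voom. With edgeR 0.0177% of the tests of all transcripts did. An unadjusted p under 0.05 was found with edgeR in 6 of the 144, and in 5.8% of the tests of all transcripts. At 10m the median change of the 12 members was -0.02 in Q80, -0.06 in Q92, -0.04 in Q111 and 0.17 in Q140. The summed level was 61.5 ± 5.96 CPM in Q80, 59.5 ± 5.8 in Q92, 59.5 ± 8.32 in Q111 and 65.2 ± 9.02 CPM in Q140 (SD, n = 8), next to 62.2 ± 8.1 CPM in WT and 59.1 ± 5.49 CPM in Q20. These comparisons share their controls. Whether Q140 differs from Q175 was not tested directly.

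The second comparison asked how the members varied with CAG length over all alleles of an age, as the log2 slope per 100 repeats with WT at 7 repeats. At 10m, 6 of 12 members had a called slope, all above 0, where 5.74% of the 470 transcripts had a called slope above 0 and 5.32% one below 0. The median slope of the members was 0.34, against 0 over all transcripts. Mir669d-2 again is among the 6, and of the 11 members that pass the filter without the Q175 libraries of 10m, 5 had a called slope, with a median of 0.33. The slope was 0.75 for Mir669d-2 (SE 0.17, adjusted p = 0.0028), 0.35 for Mir467a-1 (SE 0.07, adjusted p = 0.0011), 0.35 for Mir669c (SE 0.09, adjusted p = 0.00536) and 0.31 for Mir467d (SE 0.08, adjusted p = 0.00766). It was 0.40 for Mir466g (SE 0.12) and 0.33 for Mir467e (SE 0.10), each with an adjusted p of 0.0256. These are the members called between Q175 and the controls at 10m, and both comparisons use the same Q175 and control libraries. Mir467c (0.39, SE 0.14, adjusted p = 0.0613), Mir466d (0.20, SE 0.13, adjusted p = 0.368) and Mir669o (-0.11, SE 0.24, adjusted p = 0.809) did not pass.

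The slopes at 10m rested on Q175. Without the Q175 libraries, 0 members had a called slope and 1 had an unadjusted p under 0.05. Without Q140 and Q175, an alternative added after the data were seen, 0 were called and 0 had an unadjusted p under 0.05. The slopes of Mir467a-1, Mir467e and Mir467d then were -0.02, -0.11 and -0.05. Leaving out 1 library at a time gave 4 to 7 called members, with 4 without Q175 F1 or M1. The slope of Mir466g lost its call without Q175 F1, M1, M2 or M3, and that of Mir467e without Q175 F1, F4 or M1. With females or males alone 0 members were called (5 and 6 had an unadjusted p under 0.05).

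At 6m the slope gave 0 calls among the members by edgeR, which called 1.28% of all transcripts, and 2 had an unadjusted p under 0.05 (14.3% of all transcripts did), and 1 call each by DESeq2 and limma-voom. Mir669c had a slope of 0.23 (SE 0.07, adjusted p = 0.062). At 2m it gave 0 calls by edgeR, DESeq2 and limma-voom (edgeR called 0.213% of all transcripts), and 1 member, Mir669a-2, had an unadjusted p under 0.05 (slope -0.75, SE 0.31, adjusted p = 0.771), as did 3.83% of all transcripts. The median slope of the members was 0.14 at 6m and -0.03 at 2m.

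**Figure D4:**
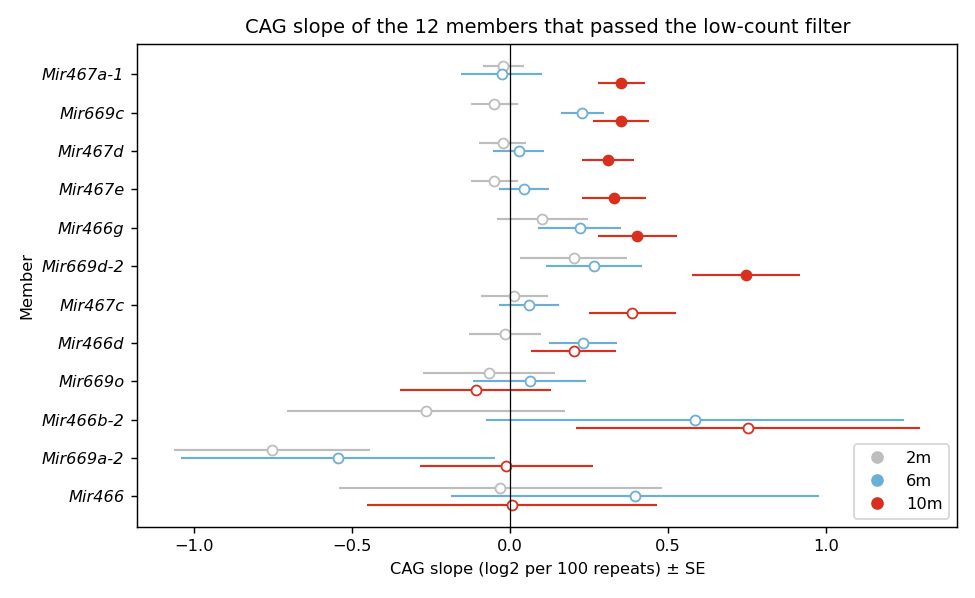
Log2 slope per 100 CAG repeats of the 12 tested members at 2m, 6m and 10m, with bars of 1 SE. Filled points passed an adjusted p of 0.05, which 6 members did at 10m (slopes from 0.31 to 0.75) and 0 at the earlier ages.

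When 6m and 10m were combined (Stouffer's method on the signed z values), 5 of 12 members were called higher and 0 lower, where 8.3% of all transcripts were called higher and 6.6% lower. They were Mir669c, Mir669d-2, Mir466g (adjusted p = 0.0102), Mir467a-1 (adjusted p = 0.0312) and Mir467d (adjusted p = 0.0393). Mir669d-2 passed the low-count filter only through the Q175 libraries of 10m, which the combined z values also use. The count of 5 of 12 is therefore a description. Leaving out 1 library gave 3 to 7 calls, with 3 without Q175 F1, F2 or F4 of 10m. Without Q175 0 were called, and with block A left out at 6m 2 were. Mir467a-1 was called although its slope at 6m was -0.02 (SE 0.13), and it lost the call with block A left out at 6m. Of 13 alternative settings 5 kept its combined call, and 4 of 13 kept that of Mir467d. Leaving out 1 library at a time ended the call of Mir467d for 23 libraries and that of Mir467a-1 for 3.

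Whether the slope itself differed between ages was tested with a product of CAG length and age. From 2m to 10m it rose in 2 of 12 members and fell in 0, where 1.49% of all transcripts had a called rise and 0.851% a called fall. The rise was 0.36 for Mir467a-1 (SE 0.10, adjusted p = 0.0244) and 0.39 for Mir669c (SE 0.11, adjusted p = 0.0432). With no low-count filter 0 were called, and limma-voom called 1. The product was not fitted without Q175, on which the 10m slopes rested. Between 6m and 10m 0 members were called by edgeR, DESeq2 or limma-voom, where edgeR called 0.638% of all transcripts. With edgeR 5 had an unadjusted p under 0.05, where 7.87% of all transcripts did.

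Males and females were compared at each age. With edgeR, DESeq2 and limma-voom 0 members were called at any age, and 1 of 36 tests of members had an unadjusted p under 0.05 with each tool. With edgeR, over the 3 ages, 0.142% of the tests of all transcripts gave a call and 10.1% an unadjusted p under 0.05.

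Members were also tested on the deposited RPKM values, an alternative added after the data were seen. Among transcripts with at least 10 RPKM in at least 8 libraries of 10m, 33 members were tested, and 12 were higher and 0 lower in Q175 at 10m by limma on log2(RPKM + 1), where 5.36% of 821 transcripts were called higher. All 33 changes were above 0, with a median of 0.47 against 0.05 over all. The share of the 821 transcripts with a change above 0 was not computed. Mir466b-5 and Mir466b-7 had the same RPKM values, as did Mir669p-1 and Mir669p-2, so the 33 are not all separate values. All 33 also met this minimum in at least 8 libraries with Q175 left out. Of the 21 members not in the count test, 5 were called. Mir467b rose by 0.79 on this scale (SE 0.14, adjusted p = 0.00034) and Gm25022 by 0.75 (SE 0.12, adjusted p = 0.000168). Gm25022 ranged from 166 to 283 RPKM in Q175 and from 76.6 to 165 RPKM in the controls. Mir669d, with 15.2 ± 3.66 RPKM in Q175 and 5.92 ± 3.1 in the controls, rose by 1.5 (SE 0.30, adjusted p = 0.00213), beside its namesake Mir669d-2 with 21.4 ± 5.15 and 8.33 ± 4.37 RPKM. For the slope at 10m, 7 of the 33 were called higher and 0 lower, where 4.63% of transcripts were called higher. Copies are nearly identical and may share reads, so these calls are not independent of one another.

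Members varied only weakly together from library to library. Over 143 libraries outside block A, after the mean of each allele, age and library code was removed, Spearman's rho between pairs of the 12 tested members had a median of 0.06 (66 pairs, from -0.27 to 0.27), against 0 over all pairs of the 470 transcripts. The highest was 0.27, between Mir467a-1 and Mir669c. With the levels as measured in all libraries the median was 0.16. These are descriptions, and all pairs share library depth and scaling. In counts as low as these a weak correlation is no finding.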

How the data were processed

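Per the study's methods, hippocampal RNA came from the miRNeasy kit, HiSeq2000 reads were aligned to mm10 with STAR, and HTSeq counted them. CASAVA 1.8.2 stands in the submitters' processing notes. From these reads the authors made and deposited estimated counts for 1626 transcripts in a table called counts. Many values are fractional, and which program gave fractions was not found in the sources. They were rounded, although the tests had been planned for whole counts. The authors also deposited RPKM values. In block A a median of 87.7% of the RPKM values (at least 50 counts) equalled those computed from the counts within 1%, against 0.357% elsewhere.

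Models were fitted over the 470 transcripts passing filterByExpr (minimum count 10), with TMM scaling and the quasi-likelihood F test of edgeR 4.0.16 (R 4.3.3), and p-values were adjusted over all 470 by Benjamini-Hochberg. Slopes and allele comparisons had terms for sex and library code (block at 6m). A called member has an adjusted p under 0.05, and an SE is the absolute log2 value over the root of F. DESeq2 1.42.0, limma 3.58.1, other filters, scalings and controls, a replicate block and leaving out each library were alternatives. The scripts were tested on simulated data. Libraries come from separate mice. Members and lists were chosen with earlier results of these data known. By plan, values are given for members that passed the filter and were among the 8 highest by mean CPM or called in any comparison. Others are given by range and count. Some values go beyond this rule, such as those of Mir466b-2 and Mir669a-2. Gm25022, Mir467b, Mir669d, Mir297b and Mir669a-3 did not pass the filter and were picked by their RPKM values. Sequences and member names came from RefSeq and GENCODE M21 (GRCm38).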

Additional observations from a re-analysis of the deposited data

Results flagged for a closer look

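The summed level and the 6 members called at 10m were checked in 21 groups of 8 libraries each, 147 checks in all, for a highest or lowest library whose gap to the next as a share of the group's range exceeded Dixon's 95% critical value. Chance gives about 1 such value in 20 groups, and 6 values were found. Mir669d-2 had 1.72 CPM in Q92 F1 at 10m (others 0.636 to 0.957). Mir467a-1 had 0.745 CPM in WT M4 at 6m, in block A (others 0.0938 to 0.392). Mir467e had 4.93 CPM in Q140 M3 at 6m (others from 5.71) and 3.82 CPM in Q20 F2 at 2m (others 5.24 to 6.48). In that library, Q20 F2 at 2m, Mir467d had 17.3 CPM (others 8.9 to 12.7). Mir669c had 8.25 CPM in WT F4 at 6m (others 11.1 to 12.9), and the 6m call of Mir669c ended when this library was left out.

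By the product term of CAG length and age, the CAG slope differed between 2m and 10m for Mir467a-1 and Mir669c. The differences were 0.36 and 0.39 on the log2 scale per 100 repeats. Both calls ended with no low-count filter, and that of Mir669c also with limma-voom. The product was not fitted without Q175, on which the 10m slopes rested.

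In the RPKM table, which the count tests do not use, 5 members outside the count test were higher in Q175 than in the controls at 10m. The changes in log2(RPKM + 1) were 1.5 for Mir669d, 0.88 for Mir297b, 0.79 for Mir467b, 0.75 for Gm25022 and 0.49 for Mir669a-3. Copies may share reads, so these calls do not add to those of the count test. At 10m Mir669d averaged 5.2 RPKM in WT and 15.2 in Q175, beside 7.32 and 21.4 for the called Mir669d-2. Gm25022 averaged 127 and 208 RPKM, beside 147 and 238 for the called Mir467a-1.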

How the results depend on the processing

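Counts of called members at 10m in Q175 and for the slope stayed within 1.5 times of 6 under other scalings, tools and filters, and 164 of 234 alternative values of single called members kept their call. For the 10m slope, females or males alone gave 0, as did leaving out Q175 or, chosen after the data were seen, both Q140 and Q175. In that last fit the slopes of Mir467a-1 (-0.02), Mir467e (-0.11) and Mir467d (-0.05) changed sign. For Q175 at 10m, females alone gave 0 and males alone 3. For 6m and 10m combined, limma-voom gave 3, females or males alone 1, leaving out Q175 0 and leaving out block A at 6m 2. For Q175 at 6m, no low-count filter, females alone and males alone each gave 0, and no batch term gave 4, 1 higher and 3 lower, a fit that also contrasts the blocks. The 6m slope gave 1 with DESeq2 and with limma-voom. For the slope difference between 10m and 2m, no filter gave 0 and limma-voom 1. The causes were not tested. A fit in 1 sex also has fewer libraries. Q175 against Q20 alone at 6m was not run, because block and allele cannot be told apart there.

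Leaving out 1 library gave 4 to 7 calls for the 10m slope, 3 to 7 for both ages combined, 6 to 8 for Q175 at 10m, and 0 to 1 each for Q175 at 6m and the slopes at 6m and 2m. The deposited RPKM table, also chosen after the data were seen, gave 6 calls for the 10m slope and 8 for Q175 at 10m.

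With the replicate number as a block, 7 members were called for the 10m slope, 6 for Q175 at 10m and 3 for both ages combined. The numbers name libraries, and the labels do not say that they pair animals. Same-numbered libraries had mean correlations of their deviations of 0.007, 0 and 0.009 at 2m, 6m and 10m. Differently numbered libraries had -0.001, 0 and -0.001. Of 162 same-numbered pairs at 2m, 37 had a correlation over 0.1, as did 35 of 162 at 10m and 38 at 6m. The share among differently numbered pairs was not computed, so these counts do not show whether animals were paired.

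The 68 members together had a median of 242 estimated counts in a library, 56 did not pass the low-count filter, and copies differ between the tables.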
